A study of Mus musculus with 8 samples.

Results

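Skin of hairloss mice was compared between postnatal days 16 and 19, the window in which the hair follicles of young mice leave their first growth phase. The samples were skin RNA of wildtype mice and of mice with a spontaneous mutation that the labels call hairloss. Skin was taken at postnatal days 0, 16, 19 and 28, with 1 library for each of 2 genotypes at each of 4 ages, 8 libraries in all. The mutated gene, the strain, the body site and the number of animals behind a library are not given in the labels. The comparison joins the hairloss library of day 16 and the hairloss library of day 19 gene by gene, 1 library a side, and the wildtype libraries of the same days serve as the reference. Protein-coding genes were kept where the value was at least 1 in either hairloss library. That left 13330 of the 21899 coding genes in the files, beside 14301 genes at that level in at least 1 of the 8 libraries.

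The values are taken to be FPKM, fragments counted per length of transcript and per size of library, a level that corrects for transcript length and library size. A difference is given as log2(FPKM + 1) at day 19 minus day 16, and a gene was called higher or lower where this reached 1 in size, which is 2-fold on that scale. With 1 library per group there is no replicate error, so no test was made, and every difference describes these libraries alone. At the edge of the filter, Slco1a5 (1.0005 FPKM at day 16, 0.844 FPKM at day 19) and Mlana (1.002 and 0.497 FPKM) were just inside, and Agrp (0.313 and 0.999 FPKM) and Unc93a2 (0.998 and 0.718 FPKM) just outside.

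The hair follicle cycles between growth (anagen), regression (catagen) and rest (telogen). In growth, matrix cells around the dermal papilla divide and form the hair shaft, built of hair keratins cross-linked by keratin-associated proteins (KRTAPs), and the inner root sheath that moulds it. In regression the matrix is lost and shaft and sheath genes go silent, while stem cells of the bulge persist, and the surrounding fat, dermis and resident immune cells change with the cycle.

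Depth, read from the steps between the smallest values, was 4.44e+07 fragments in the hairloss library of day 16 and 3.06e+07 in that of day 19, the highest and the lowest of the 8. For a 1 kb transcript, 3 fragments would then give 0.0676 and 0.098 FPKM, counting error only. Both hairloss libraries carried Y-linked RNA (Ddx3y at 20.4 and 19.4 FPKM) and almost no Xist, the RNA of the inactive X chromosome (0.00961 and 0.115 FPKM). The wildtype library of day 19 held 15.8 FPKM of Ddx3y and 12.4 FPKM of Xist, against 20.1 and 0.0158 FPKM in that of day 16. The hairloss libraries of days 0 and 28 held 0 FPKM of Ddx3y and 76.1 and 50.2 FPKM of Xist, so levels at those days also come from the other sex. The keratinocyte markers Krt5, Krt14, Krt1 and Krt10 stood at 1715 FPKM or more in both hairloss libraries, so the tissue label and the levels match. Some exact zeros among the values can be failed estimates: trichohyalin (Tchh) is listed at 0 in the wildtype library of day 16 and Col1a1 at 0 in the wildtype library of day 19, though neither is near 0 in the hairloss libraries.

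Few coding genes moved past 2-fold in hairloss skin. Of 13330 coding genes, 150 (1.13%) were at least 2-fold higher and 182 (1.37%) at least 2-fold lower at day 19, 332 (2.49%) in all, and 92.0% stayed within 1.5-fold. These counts depend on the pseudocount, with 319 higher and 277 lower at 0.1 and 43 and 89 at 5. The higher genes also outnumbered the lower ones under 1 of 2 scalings (173 and 158) and with all gene types (370 and 328). Genes not typed as protein-coding passed 2-fold more often, with 220 higher and 146 lower of 2537 compared. In wildtype skin over the same days 886 of 13578 genes (6.53%) were higher and 887 (6.53%) lower, 1773 (13.1%) in all, and 68.6% stayed within 1.5-fold. The median difference was -0.02 in both genotypes. Beyond 4-fold lay 22 genes in hairloss skin, 18 higher and 4 lower, and 364 in wildtype skin. Of the 150 higher genes 94 were also higher in wildtype skin, which is 62.7% of the hairloss list and 10.6% of the wildtype list. Of the 182 lower genes 125 were also lower in wildtype skin, 68.7% of the hairloss list and 14.1% of the wildtype list. Of the 150 higher genes 4 were lower in wildtype skin, and of the 182 lower genes 16 were higher there. Over the same 13330 genes 6.23% were lower and 6.26% higher in wildtype skin. These shares, and the 1.37% lower and 1.13% higher in hairloss skin, are the background for each list count below. The 16 include Tchh, through its 0 in the wildtype library of day 16. Among the 182 lower genes 62 were keratin or KRTAP genes, against 0 among the 150 higher ones.

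**Figure D1:**
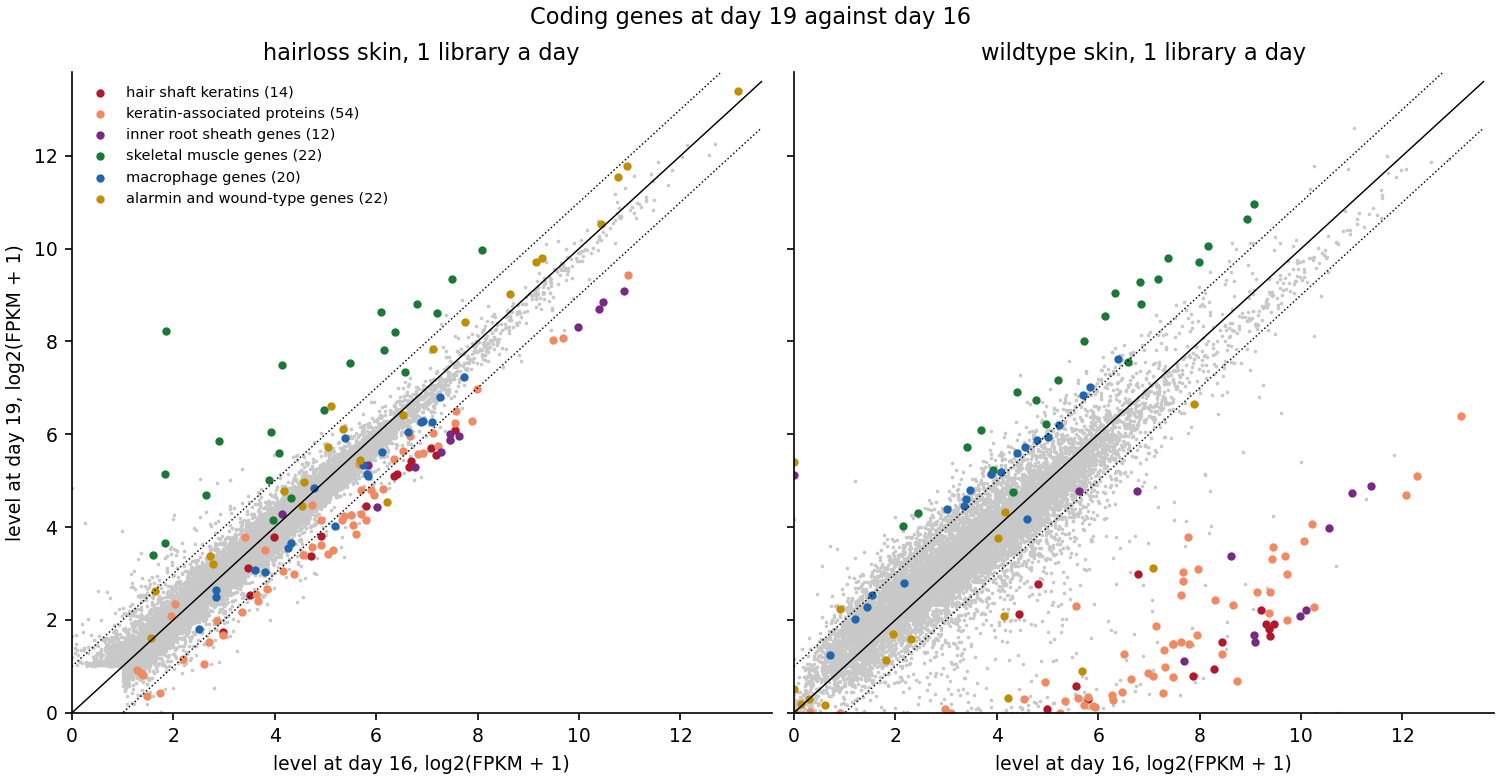
Level of each of the 13330 coding genes at day 19 against day 16, both as log2(FPKM + 1), in hairloss skin (left) and wildtype skin (right), with 1 library per axis, equal levels on the solid line, 2-fold on the dotted lines and 6 gene lists in colour. In hairloss skin most hair genes lie just beyond the lower dotted line and muscle genes above the upper one, while in wildtype skin the hair genes lie far below.

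Hair shaft keratins, which make the filaments of the fibre, were lower at day 19 in hairloss skin but far from silent. Among the 14 compared, 11 passed 2-fold downward and 0 upward, and the median difference was -1.27, beside 1.37% lower among all genes. In wildtype skin 14 of 14 were lower, with a median of -6.96, beside 6.23% of the same 13330 genes lower there and 6.26% higher. Krt86 (ENSMUSG00000067614, chromosome 15, 101473478 to 101479986, build mm10), a type II keratin of the shaft cortex, stood at 143 FPKM at day 16 and 45.8 FPKM at day 19 in hairloss skin, a level 3.13-fold lower. In wildtype skin the same gene stood at 709.6 and 2.79 FPKM. Krt83 stood at 187 and 66.99 FPKM in hairloss skin, Krt81 at 135 and 51.4 FPKM, and the type I keratin Krt34 at 99.7 and 38.4 FPKM. Krt35, an early keratin of matrix and cuticle, went from 54.6 to 20.9 FPKM and the cuticle keratin Krt82 from 25.3 to 9.34 FPKM. The 3 keratins within 2-fold were Krt39 (10.5 and 4.79 FPKM), Krt36 (10.04 and 7.72 FPKM) and Krt84 (14.8 and 12.8 FPKM). Krt84 and Krt36 are also keratins of nail and tongue, and they were the least lower in wildtype skin too, at -2.02 and -2.31. Across the 14 keratins a median of 39.7% of the day 16 level was left at day 19 in hairloss skin and 0.427% in wildtype skin.

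KRTAPs, the matrix proteins that bind shaft keratins to each other, followed with more spread. Of 57 measured genes 54 passed the filter, 39 were lower and 0 higher, and the median was -1.17, against 52 lower and a median of -5.99 in wildtype skin. The most abundant, Krtap22-2 (ENSMUSG00000095992, chromosome 16, 89010395 to 89010759), stood at 2008 FPKM at day 16 and 688 FPKM at day 19 in hairloss skin, and at 9075 and 82.7 FPKM in wildtype skin. Krtap7-1 stood at 819 and 269 FPKM in hairloss skin, and Krtap3-1 at 237 and 77.5 FPKM. The largest difference on the log2 scale was that of Krtap1-4, from 47.6 to 13.5 FPKM, followed by Krtap1-3 (54.99 to 16.9 FPKM), Krtap2-4 (34.4 to 10.3 FPKM) and Krtap4-9 (32.2 to 9.66 FPKM).

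The families, grouped by the number in their names after the values were seen, did not move alike. The 3 genes of the Krtap1 family, the 3 of the Krtap3 family and the 8 of the Krtap4 family were all lower, with medians of -1.65, -1.58 and -1.28. The Krtap19 family, which encodes small glycine and tyrosine rich proteins, had 1 of 6 lower and a median of -0.07, with differences from -1.08 to 0.37. Krtap19-4 stood at 9.63 FPKM at day 16 and 12.8 FPKM at day 19 in hairloss skin, Krtap19-2 at 3.07 and 4.07 FPKM and Krtap19-1 at 2.86 and 3.22 FPKM. These were the only 3 KRTAPs compared with a level above that of day 16. Krtap14, which lies within 2-fold as well, stood at 12.9 and 10.4 FPKM. In wildtype skin the Krtap19 family fell with the other KRTAPs, with a median of -6.18, and Krtap14 had a difference of -8.05. Members of a KRTAP family are close copies in sequence, so a value for a single member is uncertain, and the difference between families was not tested.

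The inner root sheath had the lowest median of the hair lists in hairloss skin on this scale. Of 12 genes compared 10 were lower and 0 higher, with a median of -1.60. Krt71 (ENSMUSG00000051879, chromosome 15, 101733949 to 101743109), Krt25 (ENSMUSG00000035831, chromosome 11, 99315516 to 99322951) and Krt27 (ENSMUSG00000017588, chromosome 11, 99345565 to 99351104) form the filaments of all 3 sheath layers, and mutations of the first make hair wavy in mice. Krt71 stood at 1903 FPKM at day 16 and 542 FPKM at day 19, 3.51-fold lower and the largest difference of the list. Krt25 stood at 1339 and 416 FPKM and Krt27 at 1011 and 317 FPKM. Trichohyalin (Tchh), the sheath's matrix protein, stood at 1419 and 464 FPKM, its relative Tchhl1 at 198 and 61.7 FPKM, and Padi3, the enzyme that modifies trichohyalin, at 63.6 and 20.5 FPKM. Krt72 and Krt73, keratins of the sheath cuticle, went from 174 to 57.4 FPKM and from 153 to 47.9 FPKM. The 2 sheath genes within 2-fold were its transcription factors, Gata3 (16.8 and 18.4 FPKM) and Cux1 (56.1 and 39.4 FPKM), both of which are expressed outside the sheath as well. In wildtype skin Krt71 stood at 2666 and 28.6 FPKM and Krt25 at 1505 and 14.7 FPKM, and the median was -6.53 over the same 12 genes, Tchh with its 0 included. Of these 12 genes in wildtype skin 10 were lower and Tchh alone was higher.

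The promoters of sheath and shaft genes that moved together are shown with the letters TATAAA, the core of a TATA box, in capitals. They are the 150 bases before the RefSeq start on build GRCm38.p6 (mm10), read on the gene's strand from 5′ to 3′, for the 3 sheath keratins (Krt71 at chr15:101743098-101743247, Krt25 at chr11:99322952-99323101, Krt27 at chr11:99351119-99351268, all on the minus strand) and for Krtap22-2 (chr16:89010760-89010909, minus strand).
Krt71: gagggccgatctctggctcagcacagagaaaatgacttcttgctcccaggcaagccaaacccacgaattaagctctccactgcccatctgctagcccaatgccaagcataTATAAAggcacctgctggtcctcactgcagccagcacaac
Krt25: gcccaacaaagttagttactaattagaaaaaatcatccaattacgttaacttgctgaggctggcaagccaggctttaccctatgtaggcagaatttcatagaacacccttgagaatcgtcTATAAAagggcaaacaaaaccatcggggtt
Krt27: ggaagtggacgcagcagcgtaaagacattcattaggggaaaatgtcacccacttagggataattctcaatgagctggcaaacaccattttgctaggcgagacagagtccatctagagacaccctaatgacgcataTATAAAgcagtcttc
Krtap22-2: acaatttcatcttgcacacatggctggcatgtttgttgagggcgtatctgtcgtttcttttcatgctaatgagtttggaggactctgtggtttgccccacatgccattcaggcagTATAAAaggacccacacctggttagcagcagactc

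Searched on both strands of the 150 bases, TATAAA was found in 38 of 48 KRTAP promoters (79.2%), 5 of 9 shaft keratin promoters (55.6%) and 6 of 12 inner root sheath promoters (50%), against 2179 of 27025 promoters in the table (8.06%) and 463 of 10382 among the genes compared (4.46%). Counted only on the gene's strand from 40 to 16 bases before the start, the shares were 60.4%, 44.4% and 41.7%, against 2.22% of all promoters. Of the lower genes with an entry 75 of 138 held TATAAA (54.3%), and 31 of the 85 that are in none of the 4 hair lists of shaft keratins, KRTAPs, sheath and matrix (36.5%), against 19 of the 98 higher genes with an entry (19.4%). A match describes these letters and no more, and their part in the fall was not tested.

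Upstream of these structural genes, the regulators and markers of the hair matrix moved less. Of 26 genes 6 were lower and 0 higher, with a median of -0.41, against 20 lower and a median of -2.20 in wildtype skin. Over all genes compared 1.37% were lower in hairloss skin and 6.23% in wildtype skin. The 6 were markers of matrix and forming shaft: Prr9 (828 FPKM at day 16, 303 FPKM at day 19), the receptor gene Gprc5d (75.3 and 27.9 FPKM), Crym (75.1 and 30.05 FPKM), the cuticle protein S100a3 (463 and 191 FPKM), Psors1c2 (67.05 and 29.8 FPKM) and the shaft's desmosomal cadherin Dsg4 (23.1 and 10.03 FPKM). The transcription factors that drive shaft formation stayed within 2-fold. Foxn1, mutated in nude mice, stood at 5.16 and 3.83 FPKM, Msx2 at 8.26 and 4.35 FPKM, and Lef1, the nuclear partner of Wnt signalling, at 3.503 and 3.09 FPKM. In wildtype skin each of the 3 was more than 2-fold lower, Foxn1 from 20.4 to 1.36 FPKM, Msx2 from 31.4 to 2.32 FPKM and Lef1 from 13.9 to 2.69 FPKM. All 3 already stood below the wildtype level at day 16 in hairloss skin. Hr, the corepressor whose loss makes mice hairless, stood at 145 and 159 FPKM in hairloss skin, and the vitamin D receptor Vdr at 52.2 and 46.8 FPKM. Among 48 genes known from mutations that cause hair loss in mice, 5 were lower in hairloss skin (Krt71, Krt25, Padi3, Krt75 and Dsg4) and 0 higher. Krt75, the keratin of the companion layer between the sheaths, stood at 128 and 48.7 FPKM.

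The order of the genotypes turned over within these 3 days. At day 16 all 14 shaft keratins, 52 of 54 KRTAPs and 11 of 12 sheath genes stood below wildtype in hairloss skin, at a median of 23.7%, 20.7% and 34.6% of the wildtype level. At day 19 all 14, all 54 and 11 of 12 stood above wildtype, at a median ratio of 17.5, 9.82 and 16.5. At day 28 Krt86 stood at 0.0211 FPKM in hairloss skin and 504 FPKM in wildtype skin, and 53 of the 54 KRTAPs and 11 of the 14 shaft keratins stood under 1 FPKM in hairloss skin, against none of either in wildtype skin. So in the hairloss libraries the shaft genes stood high at day 16, lower at day 19 and lowest at day 28, while in wildtype skin they were low at day 19 and high again at day 28. Sheath keratins kept more at day 28 in hairloss skin, with Krt71 at 78.7 FPKM and Krt25 at 87.7 FPKM, near their levels of 107 and 117 FPKM at day 0. KRTAPs held 1.299% of the summed FPKM of coding genes at day 16 and 0.536% at day 19 in hairloss skin, and the sheath genes 1.35% and 0.458%. In RNA of whole skin, fewer cells of a type and less RNA per cell cannot be told apart.

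**Figure D2:**
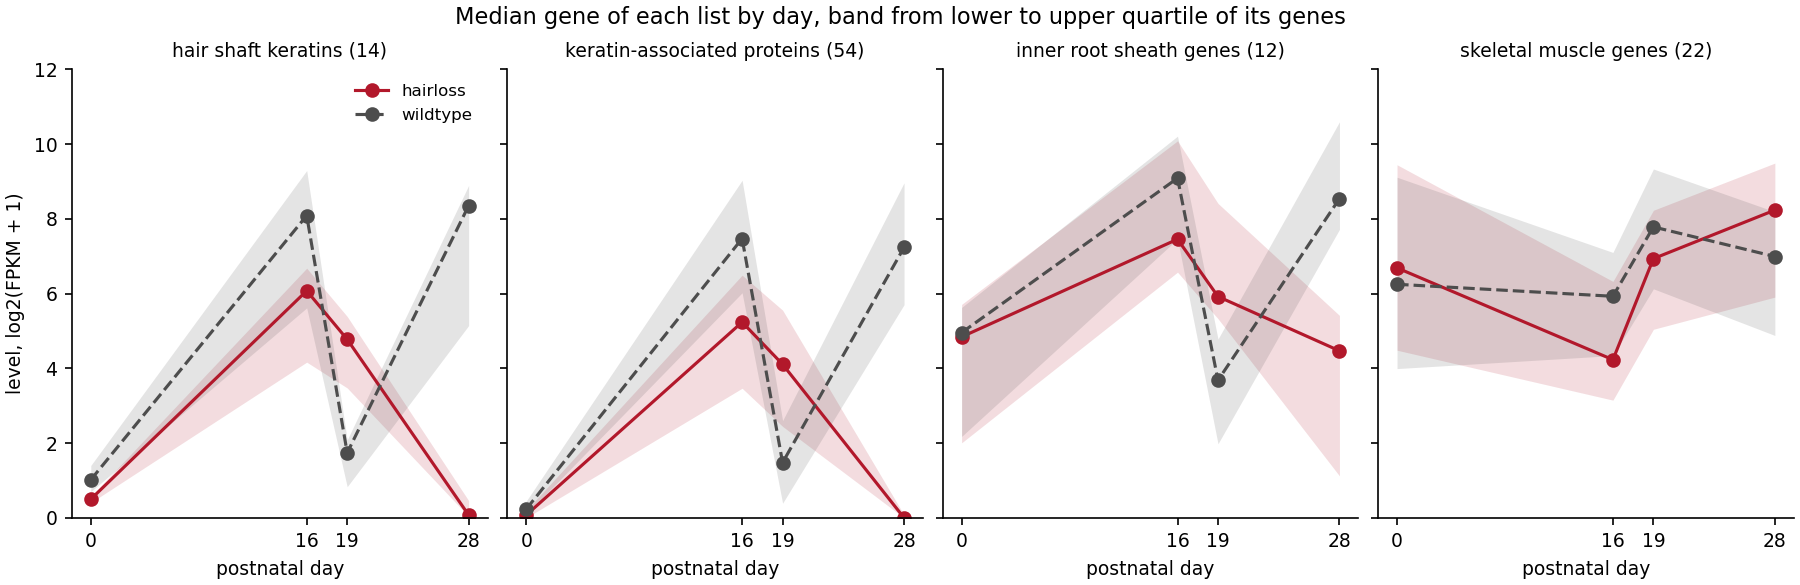
Level of the median gene of 4 lists, as log2(FPKM + 1), by postnatal day in hairloss (solid red) and wildtype skin (dashed grey), with 1 library at each point and a band from the lower to the upper quartile of the list's genes. Between days 16 and 19 the hair lists cross, hairloss skin lying below wildtype skin at day 16 and above it at day 19, while the muscle list is higher at day 19 in both genotypes.

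Genes of the signals that steer the follicle cycle mostly stayed within 2-fold in hairloss skin. Of 40 Wnt pathway genes 1 was lower and 0 higher, and 28 lay below day 16 (median -0.16). Of 22 BMP genes none passed 2-fold, and 19 lay below day 16 (median -0.27). Scaled on genes outside keratins and KRTAPs, 25 and 18 lay below day 16. Of 11 hedgehog genes none passed 2-fold, and 7 lay above day 16 (median 0.09). In wildtype skin 6 Wnt genes and 5 BMP genes were lower and 2 of each higher. The Wnt gene was Wif1, a secreted Wnt inhibitor of the dermal papilla, at 6.12 and 2.498 FPKM, and it lay just under 2-fold, at -0.96, when scaled on genes outside keratins and KRTAPs. The ligand Wnt5a stood at 10.6 and 7.06 FPKM, the hair growth ligand Wnt10b at 2.98 and 2.36 FPKM, the receptor Fzd5 at 11.5 and 7.18 FPKM and the target Axin2 at 7.705 and 11.02 FPKM. Of the BMP genes the ligand Bmp4 stood at 13.5 and 7.15 FPKM, Bmp8a at 2.54 and 1.04 FPKM, and the decoy receptor Bambi at 4.99 and 2.502 FPKM, while the antagonist Grem1 stood at 4.004 and 6.51 FPKM. Without the added 1, which shrinks differences at low levels, Bmp8a was 2.44-fold lower.

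Fgf5, the growth factor whose loss prolongs hair growth, stood at 2.49 and 1.45 FPKM in hairloss skin and at 9.05 and 0.418 FPKM in wildtype skin. Fgf7, made by the dermal papilla, stood at 7.95 and 6.04 FPKM in hairloss skin, and in wildtype skin at 2.42 and 7.87 FPKM. Only 1 of 13 FGF genes passed 2-fold in hairloss skin, Fgfbp3, a carrier of FGF ligands, at 1.299 and 3.6001 FPKM. Among 21 genes tied to follicle regression none passed 2-fold, with a median of -0.06 that became 0.00 with the libraries scaled to each other on genes outside keratins and KRTAPs, and among 26 apoptosis genes none did either. Of 20 bulge genes none passed 2-fold, with the stem cell markers Krt15 at 272 and 212 FPKM and Cd34 at 60.7 and 48.2 FPKM, where wildtype skin went from 421 to 1018 FPKM and from 65.6 to 167 FPKM. All 30 cell cycle genes lay below their day 16 level but none by 2-fold (median -0.34), as in Tyms (14.9 and 8.03 FPKM) and Cdk1 (29.1 and 21.4 FPKM). In wildtype skin 5 of those 30 were lower, and Cdk1 stood at 19.5 and 6.91 FPKM. Scaled on other genes than keratins and KRTAPs, 28 of the 30 stayed below day 16 and the median was -0.26.

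**Figure D3:**
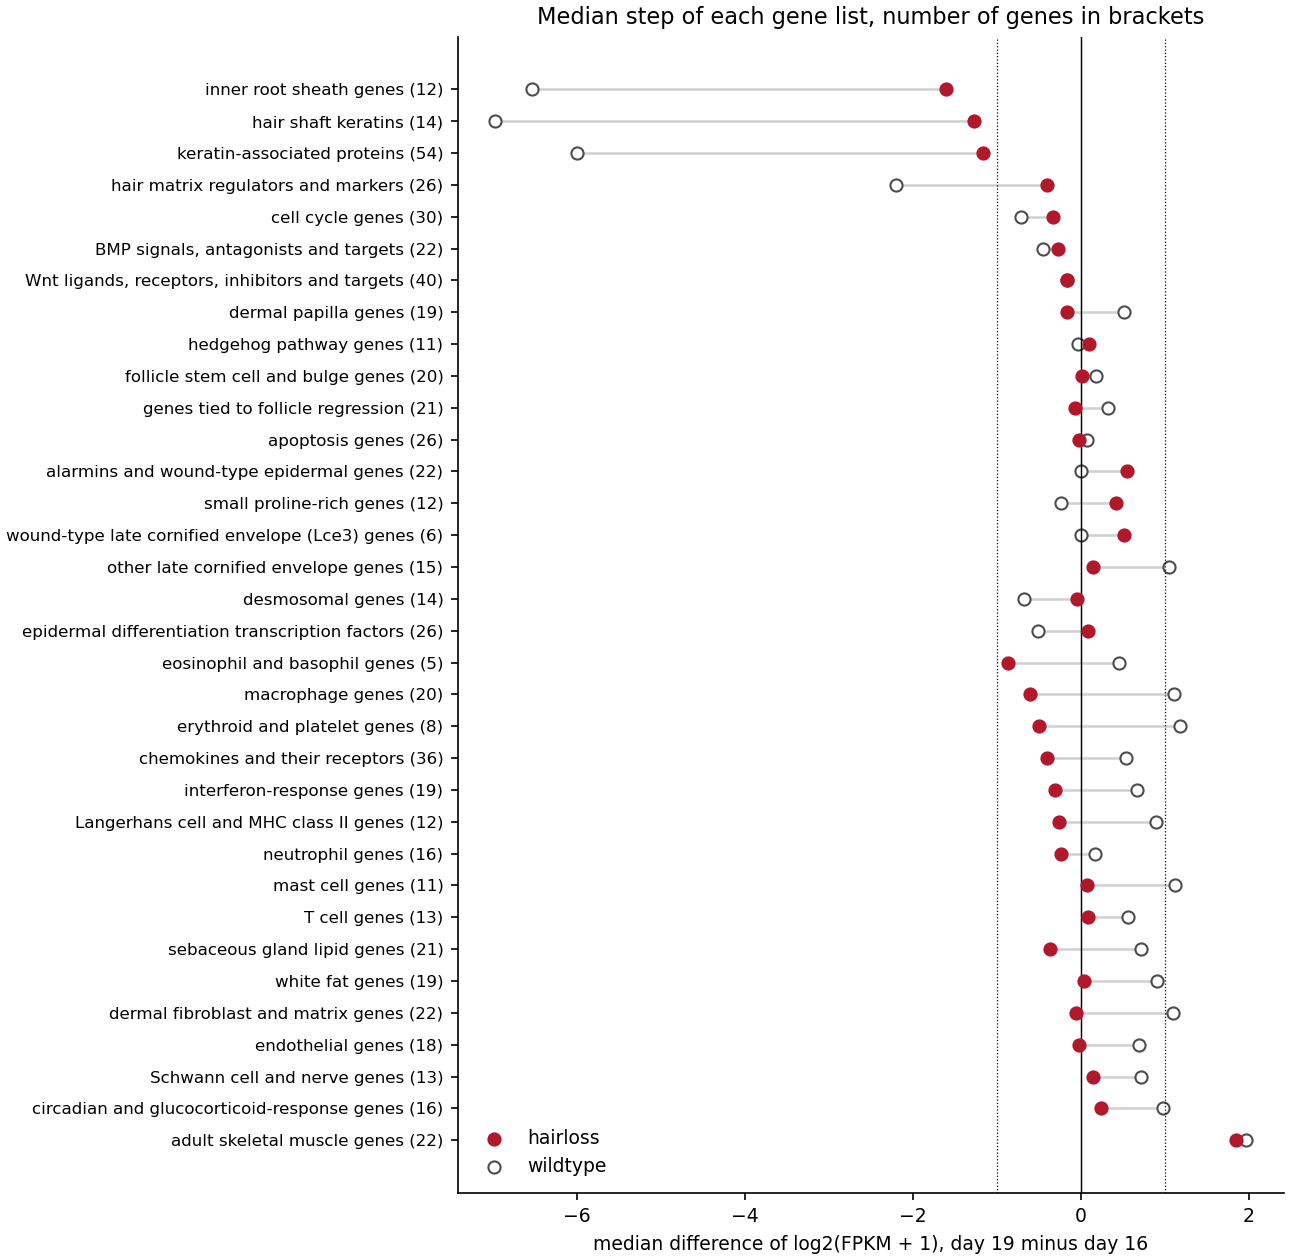
Median difference of log2(FPKM + 1) between day 19 and day 16 for 34 gene lists, in hairloss (filled red) and wildtype skin (open grey), with the number of genes compared in brackets and dotted lines at 2-fold. The 3 lists of hair structure and the muscle list lie beyond 2-fold in hairloss skin. The macrophage, chemokine, interferon, Langerhans cell and sebaceous lists lie below 0 in hairloss skin and above 0 in wildtype skin. So do the eosinophil, neutrophil, erythroid and platelet, dermal papilla, dermal matrix, endothelial, regression and apoptosis lists. The hairloss medians of the dermal matrix, endothelial, regression and apoptosis lists turn above 0 when scaled on genes outside keratins and KRTAPs.

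Adult skeletal muscle genes had the largest median of the 70 lists in hairloss skin, and it was upward. Of 22 adult muscle genes 19 were higher and 0 lower in hairloss skin (median 1.84), beside 1.13% higher among all genes, and 20 were higher in wildtype skin (median 1.97). Mouse skin carries a thin striated muscle sheet, the panniculus carnosus, which can be taken with it, and how much muscle each piece held is not given. Myh4 (ENSMUSG00000057003, chromosome 11, 67238029 to 67260446), the myosin of fast type IIb fibres, stood at 2.597 FPKM at day 16 and 299.9 FPKM at day 19 in hairloss skin, 115-fold higher and the largest difference of all 13330 genes. In wildtype skin it stood at 79.2 and 526 FPKM, and in the hairloss libraries of days 0 and 28 at 3.25 and 567 FPKM. Parvalbumin (Pvalb), the calcium buffer of fast fibres, stood at 16.7 and 180.2 FPKM, the fast myosin-binding protein Mybpc2 at 2.59 and 34.2 FPKM, and Actn3, the fast fibre actinin, at 6.49 and 57.02 FPKM. Other fibre genes differed less. Muscle creatine kinase (Ckm) stood at 67.5 and 395 FPKM, titin (Ttn) at 14.2 and 65.03 FPKM, skeletal actin (Acta1) at 272 and 995 FPKM, and the light chain Mylpf at 180.1 and 653 FPKM. Myosins of other fibre types lay within 2-fold, Myh1 of type IIx fibres at 93.7 and 163 FPKM and Myh2 of type IIa fibres at 18.9 and 23.9 FPKM, as did myoglobin (Mb) at 14.7 and 16.9 FPKM. Myog and Myh8, genes of forming fibres, went from 0.754 to 1.46 FPKM and from 6.27 to 9.35 FPKM.

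Picked by hand from the 150 higher genes after the values were seen, 52 more are known from striated muscle, and 47 of these were also 2-fold higher in wildtype skin. Muscle genes among the genes not called were not counted, so the 52 have no background share. They include titin cap (Tcap, 14.8 and 45.97 FPKM), triadin (Trdn, 9.22 and 37.3 FPKM), the ubiquitin ligase Trim63 (1.48 and 8.98 FPKM) and myostatin (Mstn, 1.598 and 6.45 FPKM). The list's share of the summed coding FPKM was 0.249% at day 16 and 1.02% at day 19 in hairloss skin, and 0.4999% and 2.47% in wildtype skin. At each of these days every one of the 22 genes stood lower in hairloss than in wildtype skin. The part of sampled muscle in the rise was not tested.

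The Myh4 promoter is shown because its gene had the largest difference: 150 bases before the RefSeq start, plus strand, chr11:67237662-67237811, with TATAAA and the muscle-type E-box CAGCTG in capitals.
Myh4: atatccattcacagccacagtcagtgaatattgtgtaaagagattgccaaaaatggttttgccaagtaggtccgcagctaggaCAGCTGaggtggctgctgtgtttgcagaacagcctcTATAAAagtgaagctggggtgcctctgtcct

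CAGCTG, which reads the same on both strands and is bound by myogenic factors such as MyoD, was found in 4 of 18 promoters of the muscle list (22.2%) and 20 of the 98 higher genes with an entry (20.4%), against 8.24% of 27025 promoters and 7.25% of the 138 lower genes.

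Alarm and wound-type genes of epidermis mostly stood higher at day 19 in hairloss skin, while most were near 0 in wildtype skin. In RNA of whole skin the cells behind these levels cannot be told apart. Of 22 such genes 18 lay above their day 16 level, 1 past 2-fold and 1 beyond it the other way, with a median of 0.54. At day 19 all 22 stood above wildtype skin, where 12 of them were under 1 FPKM. S100a8 and S100a9, the subunits of calprotectin made by stressed keratinocytes and neutrophils, went from 1984 to 3499 FPKM and from 1748 to 3004 FPKM in hairloss skin. In wildtype skin S100a8 stood at 134 and 7.64 FPKM. The stefins Stfa3 and BC100530, cysteine protease inhibitors, went from 8940.4 to 10773 FPKM and from 2167 to 3017 FPKM, Stfa3 having the highest level of all coding genes compared at both days. The 13 stefins and cystatins as a list were mixed, with 2 higher (Csta1 and BC117090), 3 lower (Stfa2l1 and 2 predicted genes), 7 above and 6 below day 16 and a median of 0.09. The wound keratins Krt6b and Krt16 went from 569.9 to 833 FPKM and from 614 to 893 FPKM. Sprr1b, a small proline-rich envelope precursor, was the gene past 2-fold, at 33.3 and 96.4 FPKM in hairloss skin and at 17.7 and 0.243 FPKM in wildtype skin. Stfa2l1 was the gene of the 22 that was lower, at 72.8 and 22.4 FPKM, and the stefin genes are close copies whose single values are uncertain. At day 28 the levels in hairloss skin were lower for S100a8 at 266 FPKM, Krt6b at 79.2 FPKM and Krt16 at 87.4 FPKM.

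Among barrier genes of the outer epidermis, the late cornified envelope lists pointed the same way without reaching 2-fold, and other lists were mixed. The 6 wound-type Lce3 genes of the late cornified envelope all lay above day 16 (median 0.51), as did 14 of 15 other Lce genes (median 0.15, and 15 of 15 with either scaling tried). In wildtype skin 8 of those 15 were at least 2-fold higher (median 1.05). Of 32 other envelope proteins and enzymes 22 lay above day 16 and 10 below, with 1 past 2-fold lower and a median of 0.12. Of 7 fused S100 genes 3 lay above and 4 below, with 3 past 2-fold lower and a median of -0.24. Among genes above day 16, loricrin (Lor) stood at 40.9 and 72.5 FPKM and filaggrin (Flg) at 1139 and 1361 FPKM. Repetin (Rptn), at 214 and 343 FPKM, and the suprabasal keratin Krt1, at 1914 and 2541 FPKM, also lay above it. Basal keratins were steady, with Krt14 at 4475 and 4829 FPKM and Krt5 at 2383 and 1903 FPKM. Against this, Krt77, a suprabasal keratin, was lower in hairloss skin, at 38.5 and 10.9 FPKM, and higher in wildtype skin, at 530.2 and 1109 FPKM. At day 28 it stood at 481 FPKM in hairloss skin. Cornulin (Crnn), a fused S100 protein, stood at 106 and 31.4 FPKM in hairloss skin and at 371 and 2.87 FPKM in wildtype skin, so it moved with the sheath gene Tchhl1 of its own gene family rather than with Flg. Of 12 small proline-rich envelope genes 10 lay above day 16, 1 past 2-fold, with a median of 0.42, and of -0.23 in wildtype skin. The 2 below day 16 were Sprr1a, at 707 and 419 FPKM, and Sprr4, at 161 and 97.9 FPKM.

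**Figure D4:**
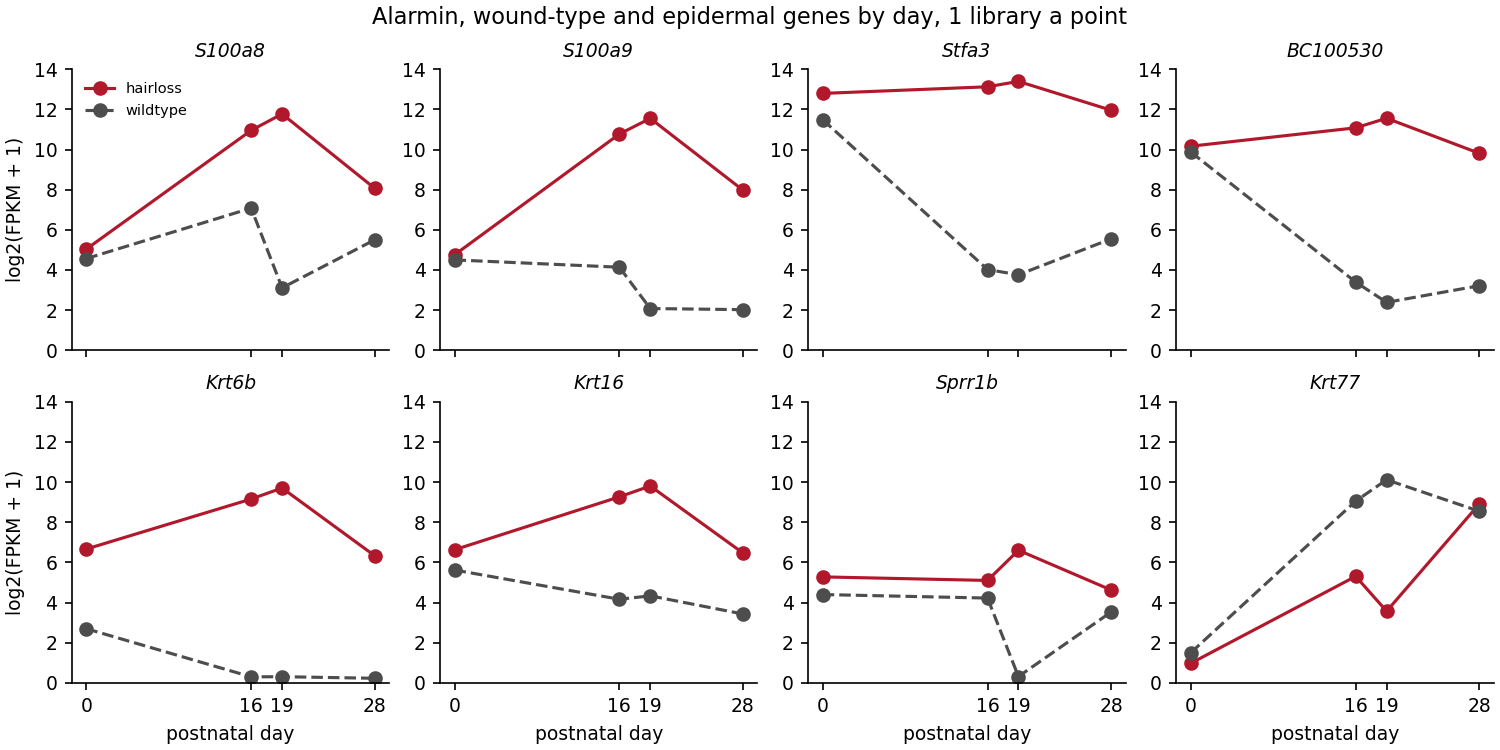
Levels of 8 epidermal genes as log2(FPKM + 1) by postnatal day in hairloss (solid red) and wildtype skin (dashed grey), 1 library a point. The first 7 genes lie above wildtype skin at all 4 days and above their own day 16 level at day 19 in hairloss skin, while Krt77 goes from 38.5 to 10.9 FPKM in hairloss skin and from 530.2 to 1109 FPKM in wildtype skin.

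Immune lists were among those that parted the genotypes. In hairloss skin 18 of 20 macrophage genes lay below their day 16 level, 1 by 2-fold, with a median of -0.60, beside 1.37% of all genes lower. In wildtype skin 13 of 20 were 2-fold higher, with a median of 1.11, beside 6.26% of all genes compared. Adgre1, which encodes the macrophage marker F4/80, stood at 35.7 and 15.2 FPKM in hairloss skin and at 9.49 and 23.5 FPKM in wildtype skin. The signalling adaptor Tyrobp stood at 136 and 75.8 FPKM in hairloss skin, the lysosomal marker Cd68 at 18.1 and 10.7 FPKM and the growth factor receptor Csf1r at 152 and 111 FPKM. The scavenger receptor Cd163 lay above day 16, at 26.4 and 27.7 FPKM. At day 16 all 20 genes stood above wildtype in hairloss skin, at a median ratio of 3.17, and at day 19 the ratio was 1.03, with 11 above and 9 below.

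Chemokines, the signals that draw leukocytes, showed the same split. Of 36 chemokine and receptor genes 6 were lower and 0 higher in hairloss skin (median -0.40), against 9 higher and 1 lower in wildtype skin (median 0.54). Over all genes compared 1.37% were lower in hairloss skin, and 6.26% were higher and 6.23% lower in wildtype skin. Ccl8, the most abundant, stood at 697 and 302 FPKM in hairloss skin and at 77.7 and 165 FPKM in wildtype skin. The monocyte attractants Ccl2 and Ccl7 went from 14.2 to 6.34 FPKM and from 18.5 to 7.51 FPKM in hairloss skin, while both rose past 2-fold in wildtype skin. The eosinophil attractant Ccl24 stood at 2.98 and 0.452 FPKM, Ccl20, the ligand of Ccr6, at 21.1 and 8.57 FPKM and the neutrophil attractant Cxcl1 at 13.04 and 5.55 FPKM. The 15 genes of the type 2 cytokine axis did not share one direction, with 2 lower (Ccl24 and Retnla), 0 higher, 7 above day 16 and a median of -0.00 that became 0.06 when scaled on genes outside keratins and KRTAPs. The next 4 genes were picked for opposite steps in the genotypes, so their directions are no evidence for a group. Retnla stood at 93.2 and 34.99 FPKM, the lectin Mgl2 at 13.5 and 6.14 FPKM, the lipoxygenase Alox15 at 12.5 and 4.599 FPKM and the eosinophil ribonuclease Ear2 at 11.6 and 3.74 FPKM, each of them past 2-fold higher in wildtype skin. Under the scaling on other genes than keratins and KRTAPs, Ccl2 (-0.98) and Mgl2 (-0.95) lay just under 2-fold. The 5 eosinophil and basophil genes compared all lay below day 16 (median -0.86), 1 by 2-fold, at levels of at most 11.6 FPKM.

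Other leukocyte lists moved less in hairloss skin. The Langerhans cell and MHC class II genes all lay below day 16 without passing 2-fold (12 genes, median -0.27), as in H2-Ab1 at 169.6 and 133 FPKM, and 10 of the 12 did so with libraries scaled without keratins and KRTAPs. Of 16 neutrophil genes none passed 2-fold, with 11 below and 5 above day 16. The list's median was -0.24, and it reached 0.27 under other settings tried. The receptors Cxcr2, at 7.59 and 5.81 FPKM, and Csf3r, at 7.38 and 5.59 FPKM, lay below day 16. S100a8 and S100a9, which this list also holds, lay above it. Mast cell genes had a median of 0.08 and T cell genes one of 0.08, with none of 11 and none of 13 past 2-fold. Under other settings tried these medians went as low as -0.17 and -0.32. Of the mast cell genes 6 lay above day 16 and 5 below. Those below include the proteases Cma1 (119 and 73.6 FPKM), Mcpt4 (118 and 88.8 FPKM) and Cpa3 (73.3 and 56.7 FPKM). In wildtype skin 8 of the mast cell genes were higher. Of 18 antimicrobial genes 2 were lower and 0 higher in hairloss skin, 6 lay above day 16 and the median was -0.19. The 2 were the lectin Reg3g, at 5.71 and 1.06 FPKM, and Wfdc21, at 125.7 and 61.01 FPKM, which lay just under 2-fold, at -0.95, when scaled on genes outside keratins and KRTAPs. The most abundant of the list, the defensin Defb6, stood at 3477 and 2651 FPKM. Outside the lists, the heme carrier hemopexin (Hpx) had the largest fall of a named gene on the log2 scale, from 22.6 to 4.63 FPKM. Interleukin 1 beta (Il1b) stood at 11.8 and 7.26 FPKM. Interferon-response genes had a median of -0.31 in hairloss skin and 0.67 in wildtype skin, with Isg15 at 10.2 and 4.58 FPKM in the former.

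**Figure D5:**
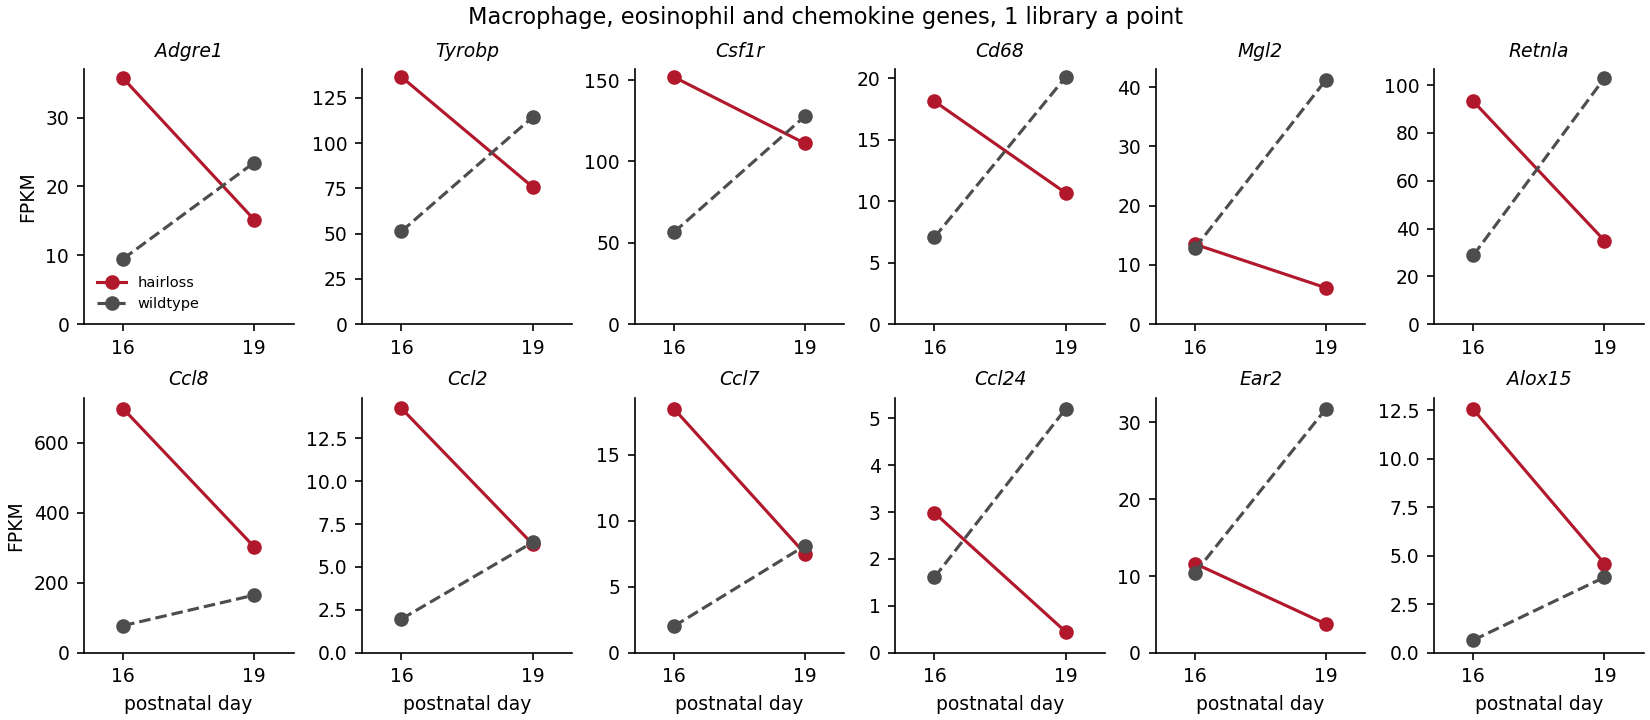
Levels in FPKM (linear axes from 0) of 12 macrophage, eosinophil and chemokine genes at days 16 and 19 in hairloss (solid red) and wildtype skin (dashed grey), 1 library a point. Each of the 12 genes is lower at day 19 in hairloss skin and higher at day 19 in wildtype skin. Many of them, such as Retnla and Ccl7, were picked for opposite steps, so the shared directions are no evidence for a group. Cd163, which lay above day 16 in hairloss skin, is not drawn.

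Some glucocorticoid-response genes were among the higher genes in hairloss skin. Of 16 circadian and glucocorticoid genes 4 were higher and 0 lower and 14 lay above day 16 (median 0.24), against 8 higher in wildtype skin (median 0.98). Over all genes compared 1.13% were higher in hairloss skin and 6.26% in wildtype skin. The 4 were targets of the glucocorticoid receptor: Zbtb16 (3.01 and 18.3 FPKM), the clock gene Per1 (7.82 and 18.8 FPKM), Tsc22d3 (20.8 and 46.2 FPKM) and Fkbp5 (11.7 and 26.1 FPKM). The clock outputs Dbp and Nr1d1, both 2-fold higher in wildtype skin, stayed within 2-fold in hairloss skin, Dbp at 6.25 and 4.79 FPKM and Nr1d1 at 4.24 and 6.27 FPKM, against 8.41 and 25.2 FPKM and 5.94 and 22.2 FPKM in wildtype skin. The hour of sampling is not given, and its part was not tested.

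Fat, gland and dermis differed little within hairloss skin. Of 19 white fat genes leptin (Lep) was the one past 2-fold, at 7.63 and 2.14 FPKM, beside the droplet coat protein Plin1 at 32.7 and 16.003 FPKM, adiponectin (Adipoq) at 78.8 and 55.5 FPKM and the lipase Pnpla2 at 33.8 and 63.4 FPKM. Sebaceous lipid genes lay below day 16 in 19 of 21 cases, none by 2-fold (median -0.37, and 18 of 21 when scaled on other genes than keratins and KRTAPs), as in Scd1 at 358 and 231 FPKM. None of 22 dermal matrix genes passed 2-fold and their median was -0.05, which became 0.03 under that scaling, and 15 of those 22 were higher in wildtype skin. Col6a3 stood at 175 and 190.3 FPKM in hairloss skin and at 85.1 and 209.6 FPKM in wildtype skin, and decorin (Dcn) at 499 and 445 FPKM and at 396 and 1118 FPKM. Endothelial genes had a median of -0.03, also turning above 0 with that scaling, and a median of 0.70 in wildtype skin. Erythroid and platelet genes had medians of -0.50 and 1.18, with the globin gene Hbb-bt at 30.5 and 17.3 FPKM in hairloss skin and 31.4 and 72.1 FPKM in wildtype skin.

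Lists of cell maintenance held few genes past 2-fold in hairloss skin. The median of 76 ribosomal protein genes was -0.14, with 1 past 2-fold each way, that of 86 oxidative phosphorylation genes -0.16, again with 1 each way, that of 12 heat shock genes -0.35 with none past 2-fold and that of 11 genes of the unfolded protein response -0.08, also with none. Enzymes of the epidermal ceramide barrier had a median of 0.04 and epidermal transcription factors one of 0.08, with none of 23 and none of 26 past 2-fold. Pigment cell genes had a median of -0.45 over 8 genes, 7 of them below day 16 and none past 2-fold. The melanin synthesis enzyme Dct stood at 15.6 and 10.05 FPKM. The replication-dependent histone genes, which are transcribed in dividing cells, had a median of -0.20 in hairloss skin, with 1 of 61 higher, and of -0.86 with 24 lower in wildtype skin.

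The largest differences also hold a few named genes of other kinds. Mest, an imprinted gene of growing tissue, stood at 20.6 and 4.27 FPKM in hairloss skin and at 15.4 and 2.86 FPKM in wildtype skin, a difference of -2.04 and -2.09 on the log2 scale. Upp1, an enzyme of uridine breakdown, stood at 26.3 and 7.07 FPKM, and Serpinb6d, a protease inhibitor, at 14.1 and 3.01 FPKM, with 109 FPKM at day 28. Mat2a, which makes S-adenosylmethionine, stood at 2.99 and 17.1 FPKM in hairloss skin, where the wildtype libraries of the same days held 18.3 and 16.9 FPKM. Cox20, an assembly factor of cytochrome oxidase, stood at 0.994 and 14.1 FPKM in hairloss skin and at 21.5 and 8.22 FPKM in wildtype skin. For Mat2a and Cox20 the hairloss library of day 16 was the low one of these 4 libraries. The 4 coding genes listed at 0 in 1 of the hairloss libraries include the imprinted transcript Snurf, at 0 and 1.31 FPKM, and 3 predicted genes. In all, 40 of the lower and 7 of the higher genes carry predicted names.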

How the data were processed

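Total RNA of mouse skin was made into libraries with a TruSeq kit, 1 for each genotype and age, per the labels' protocols. The authors deposited 1 table per library with a gene identifier and a value per gene. The deposited values are taken as FPKM from their form, since the files name no unit. Cutadapt, Cuffdiff and build mm10 are named in the submitters' processing notes. The aligner, annotation release, strand setting, scaling between libraries and number of animals per library were not given in the sources used. The depth was estimated from the spacing of low values.

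Libraries were joined on gene identifier, and symbols, gene types and coordinates came from GENCODE M21. Protein-coding genes of at least 1 FPKM in either hairloss library were compared as log2(FPKM + 1), day 19 minus day 16, with 2-fold as the size rule and no statistical test. The same difference was taken in wildtype skin, and the steps share no library. The genes compared and the 70 gene lists were chosen with earlier results of these data known. Named genes are the 12 largest differences each way, the 10 largest changes of level each way, up to 6 members of each list described and those that define it, and the 10 largest opposite steps each way. Further list members named, such as markers within 2-fold, and genes outside the lists that this rule does not cover were chosen after their values were seen. Some genes that this rule names are not reported here. Promoters came from RefSeq on GRCm38.p6, and 10388 of the 13330 genes matched an entry by symbol. Other pseudocounts, filters, scalings and gene types were tried. Python 3.11.15, numpy 2.4.6, pandas 2.3.3 and scipy 1.17.1 were used.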

Additional observations from a re-analysis of the deposited data

Results flagged for a closer look

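Some genes moved in opposite directions between days 16 and 19 in the 2 genotypes, by at least 2-fold each way. The values here are the hairloss difference minus the wildtype difference of log2(FPKM + 1), and with 1 library per genotype and day none of these differences was tested. Sprr1b, a cornified envelope precursor, was higher in hairloss skin and lower in wildtype skin, a contrast of 5.41. The respiratory chain genes Cox20 and Uqcrc1 had the same signs, at 4.20 and 4.13, and both stood lower in the hairloss library of day 16 than in the wildtype library of that day. Uqcrc1 stood at 2.88 and 9.71 FPKM in hairloss skin and at 17.4 and 1.8997 FPKM in wildtype skin.

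The other genes named here were lower in hairloss skin and higher in wildtype skin. They were picked from 16 such genes by the size of their opposite steps, so their directions are no evidence for a group. Most are genes of myeloid cells or their attractants: Retnla at -3.19, Ear2 at -2.93, Alox15 at -2.84, Ccl7 at -2.79, Ccl24 at -2.70, Mgl2 at -2.63, Adgre1 at -2.40 and Ccl2 at -2.38. The median over the 20 macrophage genes was -1.71. The suprabasal keratin Krt77 had a contrast of -2.80. Oard1, an enzyme that removes ADP-ribose from proteins, had one of -2.57, with 4.42 and 1.37 FPKM in hairloss skin and 1.72 and 6.05 FPKM in wildtype skin. In wildtype skin the library of day 19 also holds RNA of both sexes by its Ddx3y and Xist levels, and the part of this in the contrasts was not tested.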

How the results depend on the processing

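With 1 library per group no replicate could be left out and no spread exists. No paired analysis was possible because each group holds 1 library. The counts of genes past 2-fold depended on the pseudocount: 150 higher and 182 lower genes became 319 and 277 with a pseudocount of 0.1, and 43 and 89 with a pseudocount of 5. Taking all gene types gave 370 higher and 328 lower. The other settings (no filter, a minimum of 5 FPKM, both scalings, leaving out genes listed at 0) gave 106 to 173 higher and 156 to 182 lower. The median of keratin-associated proteins went from -1.17 to -0.93 with a pseudocount of 5. The B cell list has no gene left at a minimum of 5 FPKM and gives no value there. No list median or named gene that was past 2-fold changed its sign under these settings. Other list medians did: those of 9 lists within 0.06 of 0, dermal matrix and endothelial genes among them, changed sign with scaling, and the neutrophil, mast cell and T cell medians did at a minimum of 5 FPKM. The bulge, FGF, gasdermin, epidermal keratin, white fat and brown fat medians also crossed 0 under some of the settings. Of 82 named genes past 2-fold, 29 fell under it with a pseudocount of 5 and 7 under the scaling on genes outside keratins and KRTAPs. That scaling moved the median of all genes from -0.02 to 0.05 in hairloss skin and to 0.15 in wildtype skin. At the estimated depths, levels under 0.098 FPKM for a transcript of 1 kb rest on fewer than 3 fragments.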

Other observations

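Homeobox genes of the Hox clusters, which keep the positional identity of skin along the body axis, were looked at after the values were seen. Of 39 measured genes 18 passed the filter, and 5 of these 18 stood at least 2-fold higher at day 19 in hairloss skin. Of the 5, 4 were under 1 FPKM at day 16 and passed the filter only through the library where they are high. Their count therefore supports nothing. Over all genes 1.13% were higher. Hoxb7 stood at 0.434 FPKM at day 16 and 5.18 FPKM at day 19, Hoxc8 at 0.685 and 4.55 FPKM, Hoxa7 at 0.243 and 3.06 FPKM, Hoxb6 at 0.171 and 2.34 FPKM and Hoxc6 at 1.596 and 4.77 FPKM. These are genes of the trunk region of the clusters, and the body site of each skin piece is not given in the labels. In wildtype skin Hoxb7 stood at 3.6997 and 2.18 FPKM.

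The 13 protein genes of the mitochondrial genome, also looked at after the values were seen, had a median of 0.60 in hairloss skin with 3 past 2-fold and 12 of 13 above day 16, and a median of -0.00 in wildtype skin. The 3 were subunits of complex I: mt-Nd2 at 154 and 329 FPKM, mt-Nd4 at 165 and 379 FPKM and mt-Nd5 at 207 and 475 FPKM. The nuclear genes of oxidative phosphorylation had a median of -0.16 in the same libraries.

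Imprinted genes of the Peg3 domain moved opposite to Mest. Peg3 stood at 19.5 and 44.5 FPKM and Zim1 at 6.57 and 18.5 FPKM in hairloss skin, and Peg3 stood at 27.2 and 50.3 FPKM in wildtype skin. These were chosen after their values were seen.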
